A study of Mus musculus with 4 samples.

Results

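The genes described are 7 of the 32285 in the count tables, chosen by name. They are the chemokine ligands *Cxcl1*, *Cxcl5*, *Cxcl2* and *Cxcl3*, the chemokine receptor *Cxcr2*, the growth factor *Csf3* (G-CSF) and its receptor *Csf3r*. Their levels were followed across cell classes of mouse fracture callus and set beside the share of neutrophil-like cells. The 4 libraries of single-cell RNA sequencing, control_4d, control_7d, RA_4d and RA_7d, came from tibial callus of male wild-type C57BL/6J mice, 3 months old, at 4 or 7 days post-fracture (dpf). RA mice had received intraperitoneal K/BxN serum, which transfers an antibody-driven arthritis that neutrophils are known to take part in, and control mice had received PBS vehicle. Each library was prepared from 1 pool of calluses (the series text gives 4 calluses in a pool and the paper's methods 3), so there were no replicates. No test between conditions was possible, and the preparation of a library cannot be told apart from its condition. Intervals in brackets are 95% intervals that cover counting error only, not the spread between mice. Those of gene levels and their ratios treat each counted molecule as independent. They leave out the spread between cells and are too narrow where a few cells hold most molecules of a gene.

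CXCL1, CXCL2, CXCL3 and CXCL5 are small secreted proteins that draw neutrophils out of blood and into tissue, and they do so by binding CXCR2 on the neutrophil surface. CXCR2 and its ligands also let mature neutrophils leave bone marrow. G-CSF, the product of *Csf3*, binds the receptor encoded by *Csf3r* and drives the production and release of neutrophils. In inflamed tissue the ligands are made by stromal cells, endothelium and myeloid cells, often downstream of NF-κB.

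The 4 ligand genes lie on the same strand of chromosome 5 within 146.579 kb (GRCm38), in the order *Cxcl5* (chr5:90759360-90761624), *Cxcl3* (chr5:90786103-90789600), *Cxcl1* (chr5:90891241-90893115) and *Cxcl2* (chr5:90903871-90905938). The chemokine genes *Ppbp*, *Pf4* and *Cxcl15* lie between *Cxcl5* and *Cxcl1*. *Cxcr2* lies on chromosome 1 (chr1:74153989-74161246), *Csf3* on chromosome 11 (chr11:98701263-98703629) and *Csf3r* on chromosome 4 (chr4:126024550-126044440), all on the + strand. The promoter table held entries for 5 of the 7 members, and *Cxcl5* and *Csf3* had none. The sequences just upstream of *Cxcl1*, *Cxcl2* and *Cxcl3* (RefSeq, GRCm38.p6, + strand, 5′ to 3′) are shown because these neighbouring genes shared letters there, although *Cxcl1* was found mostly in other cells than *Cxcl2* and *Cxcl3*. Capitals mark the only runs of at least 8 bases that all 3 windows share. These are GGGAATTTCCC, which holds a κB-type sequence of the kind that NF-κB binds, and ATAAAAGG, a TATA-type sequence.
Cxcl1 (chr5:90891145-90891240): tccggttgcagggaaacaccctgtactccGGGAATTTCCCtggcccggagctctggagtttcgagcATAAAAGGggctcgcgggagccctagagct
Cxcl2 (chr5:90903799-90903870): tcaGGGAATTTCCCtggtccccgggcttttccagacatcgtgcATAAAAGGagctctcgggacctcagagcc
Cxcl3 (chr5:90786001-90786100): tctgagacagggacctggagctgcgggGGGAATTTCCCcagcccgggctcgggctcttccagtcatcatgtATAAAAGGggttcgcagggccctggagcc
GGGAATTTCCC started 71, 97 and 73 bases before the RefSeq start of *Cxcl1*, *Cxcl2* and *Cxcl3*, and ATAAAAGG 34, 57 and 29 bases before it. The runs do not overlap. Among 32851 promoters, the 100 bases before the start held GGGAATTTCCC on either strand in 5 (0.0152%), ATAAAAGG in 278 (0.846%) and both in 3 (0.00913%), and those 3 are the promoters shown. These are matches of letters and were not tested as binding sites. They were picked as runs that these 3 promoters share, so their presence in all 3 was fixed in advance. The counts among promoters say only how rare the letters are.

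Cells were kept by the upper limits of the study but by lower limits of 500 UMIs and 300 features, because its lower limits of 4000 UMIs and 2000 features can remove neutrophils, which hold little RNA. Kept were 6250 control and 4885 RA cells at 4 dpf (control_4d, RA_4d) and 8577 control and 9116 RA cells at 7 dpf (control_7d, RA_7d), with 85796286 to 158949181 UMIs (unique molecular identifiers, each standing for 1 captured molecule) in a library. Pairs of libraries shared 9 to 21 cell barcodes. Classes were named from marker genes after clustering without the 7 members, and a name such as mesenchymal-like says only that these markers were present. A level is given in CPM, the UMIs of a gene scaled to all UMIs summed over the cells of a class in a library. The share of a gene's UMIs held by a class or cluster is taken over the kept cells.

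Neutrophil-like cells made up 2.61% (2.23 to 3.03) of the cells in control_4d and 2.15% (1.85 to 2.47) in control_7d, against 7.78% (7.04 to 8.57) in RA_4d and 0.768% (0.599 to 0.969) in RA_7d. RA callus thus held 2.98 (2.48 to 3.61) times the control share at 4 dpf and 0.358 (0.268 to 0.474) times the control share at 7 dpf. From 4 to 7 dpf the share was 0.823 (0.663 to 1.02) times as high in control callus and 0.0987 (0.0754 to 0.128) times as high in RA callus. Of haematopoietic cells alone, neutrophil-like cells made up 4.22% in control_4d and 5.51% in control_7d, 12.6% in RA_4d and 3.18% in RA_7d.

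Among neutrophil-like cells were 3 clusters whose leading genes belong to different stages of neutrophil maturation, and they did not vary together. Cells led by *Ngp* and *Camp*, which encode granule proteins made in marrow precursors, numbered 27 and 223 in control_4d and RA_4d and 93 and 29 in control_7d and RA_7d, and their share at 4 dpf was 10.6 (7.07 to 16.4) times as high in RA. Cells led by *Elane* and *Mpo*, granule enzymes of early precursors, numbered 23, 99, 31 and 13 in the same order, 5.51 (3.47 to 9.09) times the control share in RA at 4 dpf. Cells led by *Retnlg* and *Stfa2l1*, genes of mature neutrophils, numbered 113, 58, 60 and 28. Their share was lower in RA than in control at 4 dpf, with a ratio of 0.657 (0.470 to 0.909), and at 7 dpf, with 0.439 (0.270 to 0.699). The excess of neutrophil-like cells in RA_4d therefore lay in the *Ngp*-led and *Elane*-led clusters. The markers of the *Ngp*-led cluster were mixed in stage. Over all libraries it held *Camp* at 28259 CPM, against 19.2 in the *Retnlg*-led cluster, and *Stfa2l1* at 299 against 1264. It also held *Retnlg* at 3675 CPM, against 5498, and more *Ly6g* (174 against 53.5), *Cd177* (800 against 82.8) and *Mmp8* (478 against 297).

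The choice of limits weighs on this. Within the limits of the study the shares were 0.932%, 1.11%, 5.91% and 0.486% in control_4d, control_7d, RA_4d and RA_7d, with RA to control ratios of 6.34 (4.67 to 8.75) and 0.439 (0.294 to 0.647), and only 9, 3, 7 and 2 of the *Retnlg*-led cells remained. The lower share of these cells in RA at 4 dpf did not hold there, with 0.165% in control_4d, 0.170% in RA_4d and a ratio of 1.04 (0.328 to 3.12), and at 7 dpf the ratio was 0.622 (0.0520 to 5.43). Markers of other marrow and blood cells also differed between libraries, but not all in 1 direction. In the order just given, B-like cells numbered 95, 45, 103 and 23 and basophil-like cells 9, 10, 63 and 22. The summed level of the 6 precursor markers, all detected, was 109, 27.4, 714 and 40.0 CPM, and that of 4 B cell markers, all detected, 20.1, 10.7, 22.6 and 7.84 CPM. The 5 erythroid markers detected in each library summed to 795, 758, 49.2 and 800.1 CPM, lowest in RA_4d, and the 3 megakaryocyte markers, all detected, to 9.93, 9.84, 9.16 and 15.96 CPM. The part of marrow or blood cells in the neutrophil shares was not tested.

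**Figure D1:**
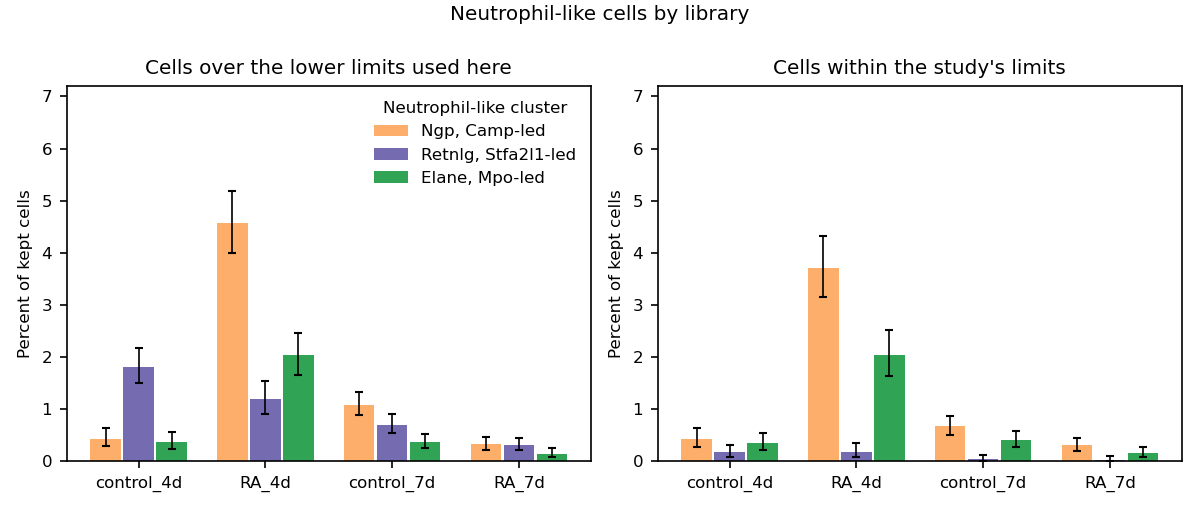
Share of kept cells (percent, y axis) in each of the 3 neutrophil-like clusters, by library, with the lower limits used here (left) and with the limits of the study (right); bars are shares and lines 95% Clopper-Pearson intervals. The *Ngp*-led bar of RA_4d (4.56%) stands above all others in both panels, and the *Retnlg*-led bars nearly vanish on the right.

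*Cxcl1*, which encodes the ligand KC, was a gene of mesenchymal-like cells. In these cells its level was 519 (510 to 529) CPM in control_4d and 251 (247 to 255) in control_7d, 455 (445 to 465) in RA_4d and 417 (413 to 421) in RA_7d. Control callus at 7 dpf held the lowest of the 4 levels. Mesenchymal-like cells held 70.0%, 63.4%, 70.1% and 77.3% of the *Cxcl1* UMIs of kept cells in control_4d, control_7d, RA_4d and RA_7d, while making up 13.2%, 31.1%, 12.5% and 42.0% of these cells. Their clusters had medians of 18936 to 28082 UMIs in a cell, against 15123 over all kept cells. The share of cells thus understates their share of RNA. Of deposited *Cxcl1* UMIs, 52.0%, 22.9%, 52.9% and 14.6% lay in barcodes over the upper limits, outside these shares. Pericyte or smooth muscle-like cells, which wrap vessels, held 259, 291, 240 and 400 CPM. Blood endothelial-like cells followed with 74.6, 89.1, 60.0 and 65.6 CPM, and macrophage-like cells with 30.2, 30.0, 20.1 and 41.5 CPM.

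Within mesenchymal-like cells, *Cxcl1* in RA was 0.876 (0.851 to 0.901) times the control level at 4 dpf and 1.66 (1.63 to 1.69) times at 7 dpf. From 4 to 7 dpf the ratio was 0.483 (0.471 to 0.494) in control and 0.916 (0.894 to 0.939) in RA. The difference at 7 dpf was much smaller inside the clusters with the highest levels. In the *Pi16*-led cluster, whose leading genes mark stem-like fibroblasts, *Cxcl1* stood at 759, 558, 791 and 579 CPM in control_4d, control_7d, RA_4d and RA_7d, and RA to control at 7 dpf was 1.04 (1.01 to 1.07). In the *Saa3*-led cluster it stood at 732, 628, 608 and 611 CPM, with a ratio at 7 dpf of 0.974 (0.928 to 1.02). In the *Aspn*-led cluster of committed progenitor-like cells it stood at 278, 214, 234 and 194 CPM, with 0.907 (0.869 to 0.946). The *Abca8a*-led fibroblast-like cluster differed more, with 448, 210, 368 and 293 CPM and a ratio of 1.39 (1.31 to 1.48). The *Tnmd*-led tenocyte precursor-like cells held 56.2, 154, 15.6 and 142 CPM, with ratios of 0.278 (0.178 to 0.418) at 4 dpf and 0.922 (0.836 to 1.02) at 7 dpf.

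The mix of these clusters also differed between libraries, but not in step with the class level. The *Pi16*-led cells, high in *Cxcl1*, made up 34.1% of mesenchymal-like cells in control_4d and 13.5% in control_7d, 13.5% in RA_4d and 39.0% in RA_7d. *Aspn*-led cells, lower in *Cxcl1*, made up 16.0%, 49.9%, 20.7% and 15.8%. Cells of the *Col2a1*-led osteochondral-like cluster, at 17.9 CPM in control_7d and 16.6 CPM in RA_7d, were found at 7 dpf only, as 11.3% and 4.73% of the class. At 7 dpf the higher class level in RA thus lay beside more *Pi16*- and *Saa3*-led cells and fewer *Aspn*- and *Col2a1*-led cells. The low-level *Tnmd*-led cells went the other way, with 6.07% in control_7d and 11.6% in RA_7d. The part of the mix in the class levels was not tested. All kept cells together held 161, 176, 130 and 311 CPM of *Cxcl1* in control_4d, control_7d, RA_4d and RA_7d, highest in the library with the lowest share of neutrophil-like cells. Over all deposited barcodes the values were 223, 189, 183 and 320.3 CPM, so that the order of the control days turned.

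*Cxcl5* (LIX) also had its highest level of the named classes in mesenchymal-like cells, and it followed another course. Its level in these cells was 119 (115 to 124) CPM in control_4d and 66.6 (64.6 to 68.6) in control_7d, 283 (275 to 291) in RA_4d and 82.7 (80.9 to 84.6) in RA_7d. RA_4d was the highest of the 4, at 2.37 (2.26 to 2.49) times control_4d, or 1.24 on the log2 scale. At 7 dpf RA stood at 1.24 (1.20 to 1.29) times control, but this order turned when cells were named or clustered otherwise, with ratios of 0.892 for cells named one by one and 0.957 at a clustering resolution of 0.5. The ratio was also 0.957 with the unnamed *Timp1*-led cluster, described below, counted as mesenchymal-like. Among kept cells the class held 66.9%, 48.3%, 69.1% and 72.4% of *Cxcl5* UMIs in control_4d, control_7d, RA_4d and RA_7d, less than of *Cxcl1* UMIs in each library. Macrophage-like cells held 2.14 to 5.57 CPM and blood endothelial-like cells 1.09 to 2.01 CPM.

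In *Saa3*-led fibroblast-like cells *Cxcl5* stood at 275, 163, 504 and 258 CPM in control_4d, control_7d, RA_4d and RA_7d, the highest level of a mesenchymal-like cluster in each library but control_7d. *Saa3* encodes an acute-phase protein that fibroblasts make under inflammatory stimuli. RA to control was 1.83 (1.71 to 1.96) at 4 dpf and 1.58 (1.44 to 1.74) at 7 dpf in this cluster. In the *Aspn*-led cluster *Cxcl5* stood at 69.6, 65.1, 230 and 41.3 CPM, 3.30 (2.91 to 3.74) times control at 4 dpf and 0.634 (0.580 to 0.692) times at 7 dpf. The *Pi16*-led cells went the other way at 4 dpf. There *Cxcl5* stood at 149, 172, 88.1 and 74.2 CPM, 0.590 (0.506 to 0.685) times control at 4 dpf and 0.430 (0.404 to 0.459) times at 7 dpf. The *Tnmd*-led cells, at 28.4, 15.9, 1.16 and 4.73 CPM, were also lower in RA on both days. The *Saa3*-led cells also made up 38.3% of mesenchymal-like cells in RA_4d, against 14.0% in control_4d, 5.43% in control_7d and 16.3% in RA_7d.

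*Cxcl5* was more unevenly spread over cells than *Cxcl1*. The 10% of mesenchymal-like cells with the most UMIs of the gene held 81.1%, 91.1%, 76.9% and 89.97% of *Cxcl5* UMIs in control_4d, control_7d, RA_4d and RA_7d, and 47.6%, 57.0%, 51.2% and 55.7% of *Cxcl1* UMIs.

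A large source of both genes lay in a cluster without a class name. This cluster, led by *Timp1*, by *Cxcl5* itself and by genes of cell division (*Diaph3*, *Birc5*, *Hmmr*), stayed unnamed, since its marker scores were low and none of its 20 leading genes was a marker of a class. It held genes of mesenchymal cells all the same, with the transcription factor gene *Prrx1* at 605 CPM over all libraries, against 244 to 760 CPM in the named mesenchymal-like clusters, and *Pdgfra* at 238 CPM, against 36.4 to 469 CPM. Its 156, 449, 186 and 230 kept cells in control_4d, control_7d, RA_4d and RA_7d held 365, 390, 260 and 753 CPM of *Cxcl1* and 192, 296, 300 and 356 CPM of *Cxcl5*. Among kept cells that cluster alone held 24.9%, 45.2%, 26.2% and 23.6% of *Cxcl5* UMIs. Cells of the cluster over the upper limits held a further 8216, 2795, 9021 and 3000 *Cxcl5* UMIs, of 15079, 12464, 20216 and 14688 deposited. RA to control for *Cxcl1* in the kept cells of the cluster was 0.711 (0.665 to 0.759) at 4 dpf and 1.93 (1.86 to 2.01) at 7 dpf, and here the 7 dpf difference was inside 1 cluster.

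**Figure D2:**
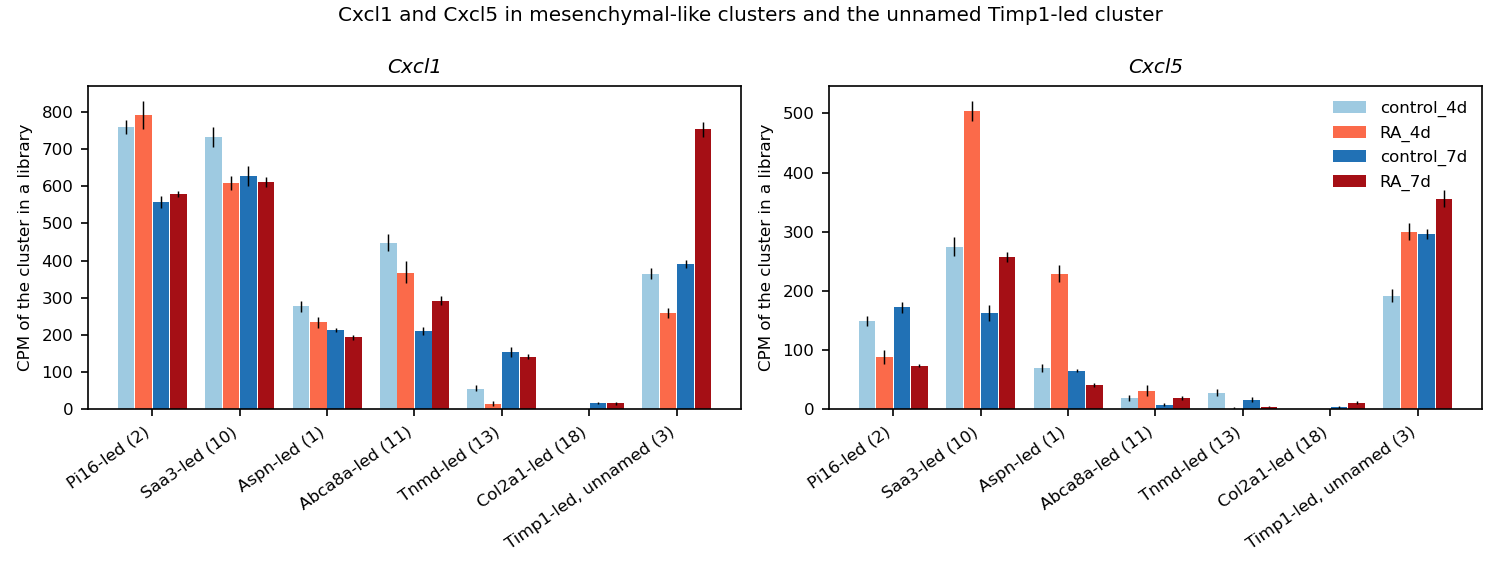
Level of *Cxcl1* (left) and *Cxcl5* (right) in CPM (y axis) in the mesenchymal-like clusters and the unnamed *Timp1*-led cluster (x axis), by library; lines are 95% Poisson intervals. *Cxcl1* reaches 791 CPM in the *Pi16*-led cells of RA_4d and 753 CPM in the *Timp1*-led cells of RA_7d, while *Cxcl5* peaks at 504 CPM in the *Saa3*-led cells of RA_4d.

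Signs of handling stress were measured beside these levels. The 10 immediate early and heat shock genes, which cell dissociation is known to induce, summed to 3785, 2830, 5075 and 3985 CPM in mesenchymal-like cells of control_4d, control_7d, RA_4d and RA_7d. In macrophage-like cells they summed to 2609, 2655, 2713 and 3382 CPM. Like *Cxcl1*, the sum was lowest in control_7d among mesenchymal-like cells, and its part in the *Cxcl1* levels was not tested.

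*Cxcl2* (MIP-2) belonged mainly to myeloid cells. In macrophage-like cells, which held most of its UMIs at 4 dpf, it stood at 509 (501 to 516) CPM in control_4d and 438 (429 to 446) in control_7d, 577 (566 to 587) in RA_4d and 688 (674 to 702) in RA_7d. RA to control was 1.13 (1.11 to 1.16) at 4 dpf and 1.57 (1.53 to 1.62) at 7 dpf. The 4 dpf ratio did not hold in most clusters of the class, as it was 0.861 in *Arg1*-led, 0.758 in *H2-Aa*-led and 0.738 in *Ccl12*-led cells, and 1.91 in *Ccl8*-led cells. At 7 dpf these ratios were 1.65, 1.59, 1.58 and 1.07, each above 1. The mix differed too, with *Arg1*-led cells, lowest in *Cxcl2*, as 48.2%, 35.9%, 34.5% and 19.01% of macrophage-like cells and *Ccl8*-led cells as 20.6%, 15.9%, 17.97% and 32.8% in control_4d, control_7d, RA_4d and RA_7d. In the same order *Ccl12*-led cells, highest in *Cxcl2* over all libraries (780 CPM), made up 17.6%, 12.7%, 33.7% and 7.71%, and *H2-Aa*-led cells 13.6%, 35.4%, 13.8% and 40.5%. The part of the mix in the class ratios was not tested. Macrophage-like cells held 59.8%, 43.3%, 64.4% and 39.9% of *Cxcl2* UMIs in control_4d, control_7d, RA_4d and RA_7d. Monocyte-like cells held 789, 903, 455 and 1196 CPM, 0.577 (0.541 to 0.615) times control at 4 dpf and 1.32 (1.26 to 1.39) times at 7 dpf. The 7 dpf direction did not hold in the part of this class led by *Ly6c2*, described below. Mesenchymal-like cells held 110, 49.0, 65.5 and 60.3 CPM. Being many, they held 13.3% of *Cxcl2* UMIs over all libraries, against 11.5% in monocyte-like and 51.7% in macrophage-like cells. Their level over all libraries, 63.2 CPM, was close to that of T-like (54.6), B-like (66.0) and NK-like cells (72.6). The part of free RNA, described below, in their share was not tested.

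The cells with the highest *Cxcl2* level were mature-type neutrophils themselves. In the *Retnlg*-led cluster *Cxcl2* stood at 8278 CPM in control_4d and 7689 in control_7d, 2534 in RA_4d and 6464 in RA_7d. RA to control there was 0.306 (0.282 to 0.332) at 4 dpf and 0.841 (0.765 to 0.922) at 7 dpf. RA_4d held the lowest of the 4 levels. Single cells weighed on these values. Of *Cxcl2* UMIs in the neutrophil-like class, 1 cell held 929 of 1863 in control_7d and 778 of 3458 in control_4d. The highest cells of RA_4d and RA_7d held 115 of 1227 and 114 of 808. Levels and ratios without these cells were not computed, so the order at 7 dpf is uncertain. *Ngp*-led cells held 142, 130, 126 and 289 CPM. The level of the whole neutrophil-like class was 2381, 893, 179 and 828 CPM, beside a share of *Retnlg*-led cells in it of 69.3%, 32.6%, 15.3% and 40.0%. With few cells and little RNA each, the *Retnlg*-led cluster held 11.1%, 7.42%, 3.94% and 2.63% of *Cxcl2* UMIs.

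*Cxcl3* had its highest class level in monocyte-like cells, and in 1 kind among them. It stood at 338 (319 to 359) CPM in control_4d and 415 (394 to 436) in control_7d, 65.6 (57.1 to 74.9) in RA_4d and 370 (348 to 393) in RA_7d. RA_4d again held the lowest level, at 0.194 (0.167 to 0.224) times control, against 0.892 (0.824 to 0.965) times at 7 dpf. These cells held 46.2%, 73.5%, 29.4% and 62.0% of *Cxcl3* UMIs. Macrophage-like cells held 28.8, 11.05, 15.6 and 13.7 CPM. Being many, they held a larger share of *Cxcl3* UMIs than monocyte-like cells in RA_4d and nearly as large a share in control_4d. Over all libraries the shares were 25.6% in macrophage-like and 56.6% in monocyte-like cells.

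At a clustering resolution of 2 the monocyte-like cluster separated into a part led by *Mmp12*, which encodes macrophage elastase, and a part led by *Ly6c2*, a marker of inflammatory monocytes. In the *Mmp12* part *Cxcl3* stood at 643, 705, 211 and 541 CPM in control_4d, control_7d, RA_4d and RA_7d, and *Cxcl2* at 1242, 1396, 1104 and 1739 CPM. In the *Ly6c2* part *Cxcl3* stood at 14.3, 18.7, 4.49 and 2.12 CPM and *Cxcl2* at 370, 206, 179 and 138 CPM. *Cxcl2* there was thus lower in RA on both days, while in the *Mmp12* part it was lower at 4 dpf and higher at 7 dpf. The *Mmp12* part held 43.6%, 55.5%, 29.5% and 66.4% of the cluster. The low *Cxcl3* level of RA_4d was thus present inside the *Mmp12* part as well, beside a smaller share of that part. The *Mmp12* part had no class name of its own at this resolution and counted as macrophage-like at a resolution of 0.5. With it taken out, 7 to 4 dpf in RA turned for monocyte-like cells, from 2.63 to 0.769 for *Cxcl2* and from 5.64 to 0.473 for *Cxcl3* at a resolution of 2.

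**Figure D3:**
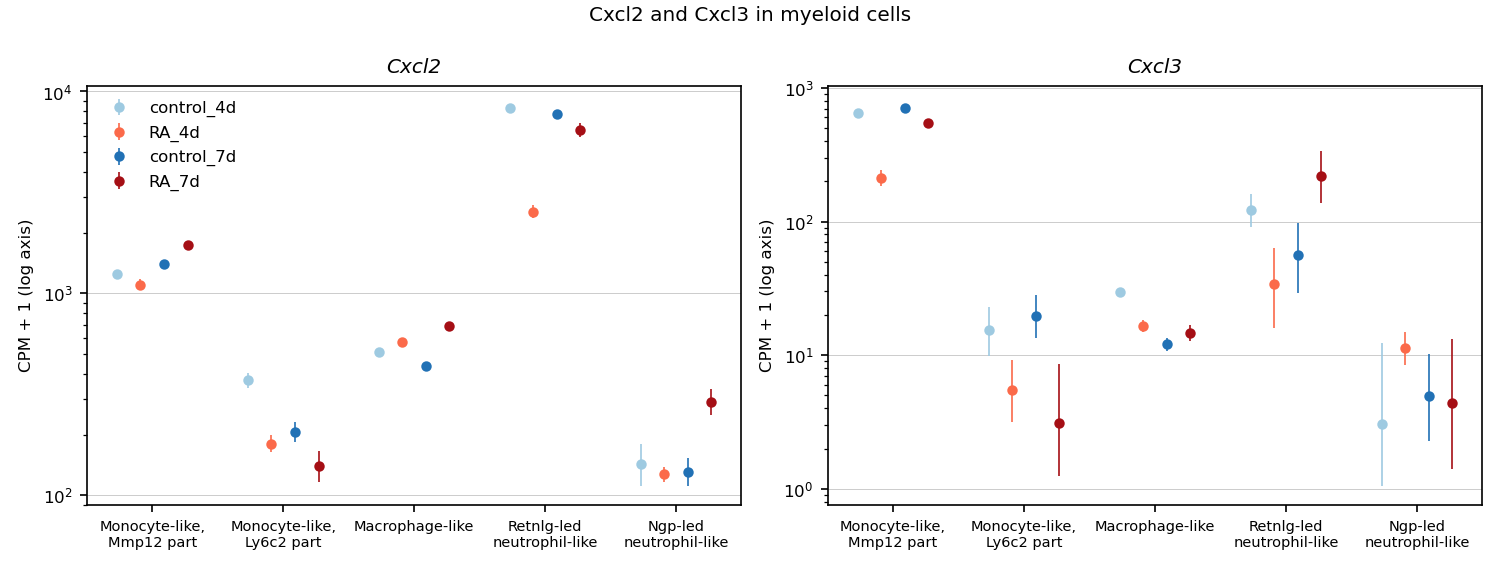
Level of *Cxcl2* (left) and *Cxcl3* (right) as CPM + 1 (y axis, log scale) in the 2 parts of the monocyte-like cluster, in macrophage-like cells and in 2 neutrophil-like clusters, by library; lines are 95% Poisson intervals. For *Cxcl2* the *Retnlg*-led neutrophil-like cells lie highest, at 2534 to 8278 CPM with RA_4d below the others, and for *Cxcl3* the *Mmp12* part lies highest in each library, at 211 to 705 CPM.

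*Csf3*, the gene of G-CSF, was rare and nearly all endothelial. Blood endothelial-like cells held 231, 86, 129 and 215 of its UMIs in control_4d, control_7d, RA_4d and RA_7d, or 85.2%, 73.5%, 89.6% and 81.4% of them. Its level there was 17.8 (15.6 to 20.3), 7.38 (5.90 to 9.11), 14.1 (11.8 to 16.8) and 14.3 (12.5 to 16.4) CPM, lowest in control_7d. RA to control was 0.791 (0.633 to 0.986) at 4 dpf and 1.94 (1.503 to 2.52) at 7 dpf, and 7 to 4 dpf in control was 0.414 (0.319 to 0.533). A UMI of *Csf3* was seen in 57 of 602, 48 of 759, 41 of 429 and 89 of 1039 of these cells, with at most 31, 11, 30 and 14 UMIs in 1 cell. Without the highest cell of each library the levels were 15.4, 6.44, 10.8 and 13.4 CPM, in the same order.

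Within endothelium *Csf3* was mostly in the cluster led by *Selp* and *Ackr1*, genes of venular endothelium, where leukocytes leave the blood. There it stood at 45.9, 19.1, 21.9 and 23.7 CPM in control_4d, control_7d, RA_4d and RA_7d, against 3.23 to 4.96 CPM in the *Gpihbp1*-led cluster. In the *Selp*-led cells RA to control was 0.476 (0.361 to 0.623) at 4 dpf and 1.24 (0.906 to 1.71) at 7 dpf, so that the difference at 7 dpf was within counting error. These venular-type cells numbered 255, 215, 195 and 566, and so were a larger part of the endothelial class in RA_7d than in control_7d. Across the class *Selp*, the adhesion molecule P-selectin, stood at 277 CPM in control_7d and 637 CPM in RA_7d, 1.20 on the log2 scale. *Sele*, E-selectin, stood at 88.7 and 145 CPM, 0.71 on that scale. Both are leading genes of the venular-type cluster, which made up 28.3% of the class in control_7d and 54.5% in RA_7d. Over all libraries *Selp* stood at 1108 CPM in that cluster and 87.5 in the *Gpihbp1*-led cluster, and *Sele* at 265 and 35.9. The part of the mix in the class values was not tested.

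*Cxcr2*, the receptor of the 4 ligands, was found in neutrophil-like cells, which held 83.6%, 88.3%, 87.2% and 63.4% of its UMIs in control_4d, control_7d, RA_4d and RA_7d. The class level was 207 (184 to 231), 159 (142 to 177), 82.8 (76.1 to 89.9) and 94.2 (76.0 to 116) CPM. It was lower in both RA libraries, but the clusters differed far more than the libraries did. *Retnlg*-led cells held 594, 694, 476 and 648 CPM, *Ngp*-led cells 115, 134, 97.5 and 49.4 CPM, and *Elane*-led cells 3.41 to 17.98 CPM. In *Retnlg*-led cells RA to control was 0.802 (0.643 to 0.997) at 4 dpf and 0.934 (0.684 to 1.26) at 7 dpf. In *Ngp*-led cells it was 0.848 (0.640 to 1.14) at 4 dpf and 0.369 (0.240 to 0.550) at 7 dpf, the latter from 29 UMIs in RA_7d. Basophil-like cells, cells of allergic inflammation, also held *Cxcr2*, at 94.7 CPM (42 UMIs) in RA_4d and 83.5 CPM (8 UMIs) in RA_7d. Macrophage-like cells held at most 0.256 CPM.

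*Csf3r* was shared between neutrophil-like and macrophage-like cells. In the neutrophil-like class it stood at 407, 238, 133 and 232 CPM in control_4d, control_7d, RA_4d and RA_7d. In *Retnlg*-led cells these differences were not seen, with 1309, 1343, 1366 and 1454 CPM and RA to control of 1.04 (0.912 to 1.19) at 4 dpf and 1.08 (0.878 to 1.33) at 7 dpf. *Ngp*-led cells held 105, 146, 108 and 121 CPM and *Elane*-led cells 23.1, 31.1, 39.0 and 54.6 CPM, the latter with RA to control of 1.69 (0.941 to 3.28) at 4 dpf. Macrophage-like cells held 39.8, 44.6, 42.8 and 49.8 CPM and, being many, 61.3%, 55.1%, 40.8% and 55.9% of *Csf3r* UMIs. Monocyte-like cells held 36.4, 38.2, 62.8 and 39.8 CPM, with RA to control of 1.73 (1.37 to 2.19) at 4 dpf. At 4 dpf *Csf3r* stood higher in RA inside both parts of this class, with overlapping intervals. The *Ly6c2* part held 57.9 (46.3 to 71.6) CPM in control_4d and 79.0 (67.7 to 91.5) in RA_4d, and the *Mmp12* part 19.9 (13.5 to 28.5) and 29.8 (19.8 to 43.1). The *Ly6c2* part, higher in *Csf3r*, also made up 45.9% of the cluster in control_4d and 66.5% in RA_4d.

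**Figure D4:**
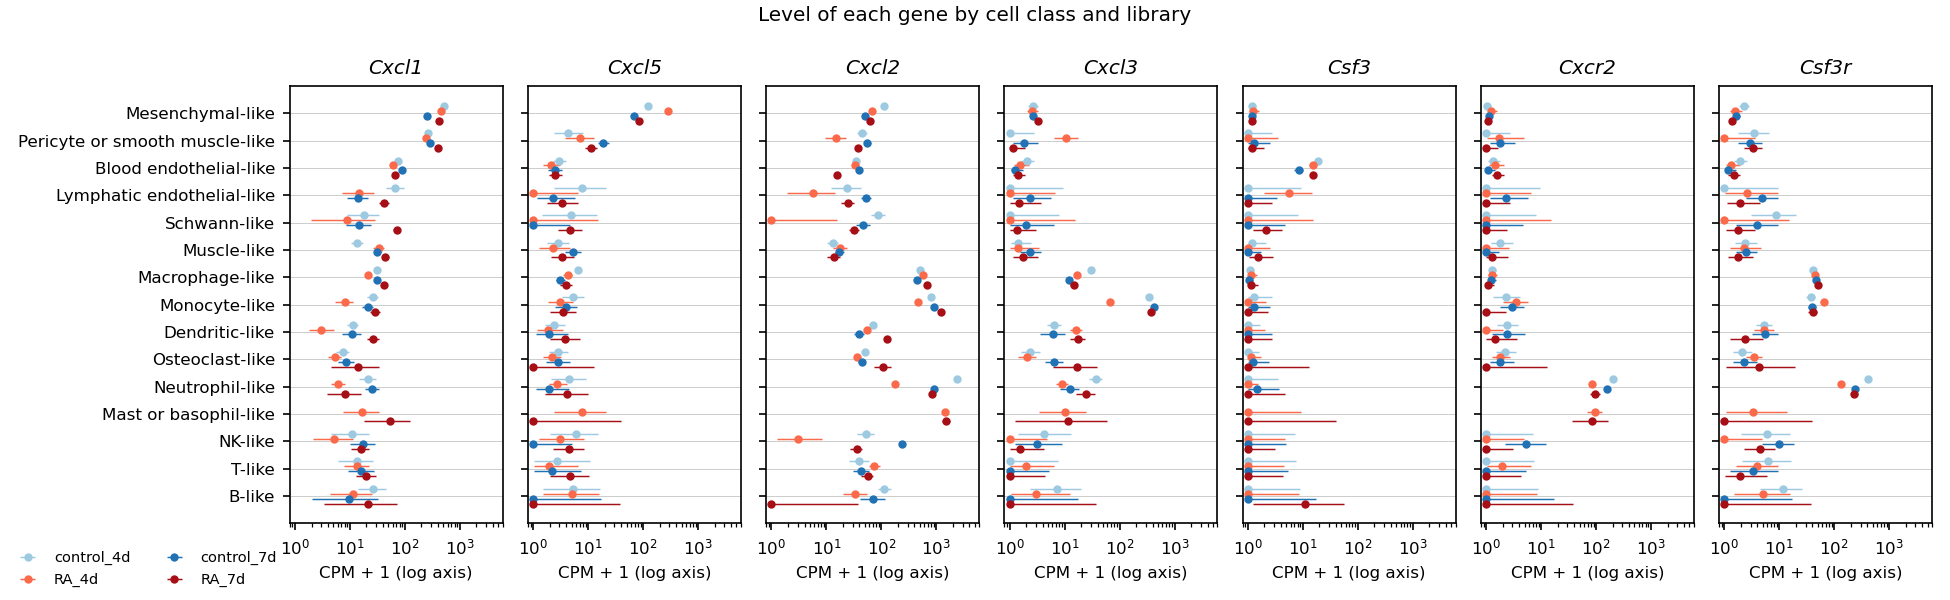
Level of each of the 7 genes as CPM + 1 (x axis, log scale) in each cell class (rows) and library (colours); points are levels from summed UMIs and lines 95% Poisson intervals, and classes with fewer than 20 cells in a library are left out there. *Cxcl1* is high in mesenchymal-like cells (251 to 519 CPM) and pericyte or smooth muscle-like cells (240 to 400 CPM), *Cxcl5* in mesenchymal-like cells, *Csf3* in blood endothelial-like cells, and *Cxcr2* in neutrophil-like cells and, in RA_4d (94.7 CPM), basophil-like cells.

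**Figure D5:**
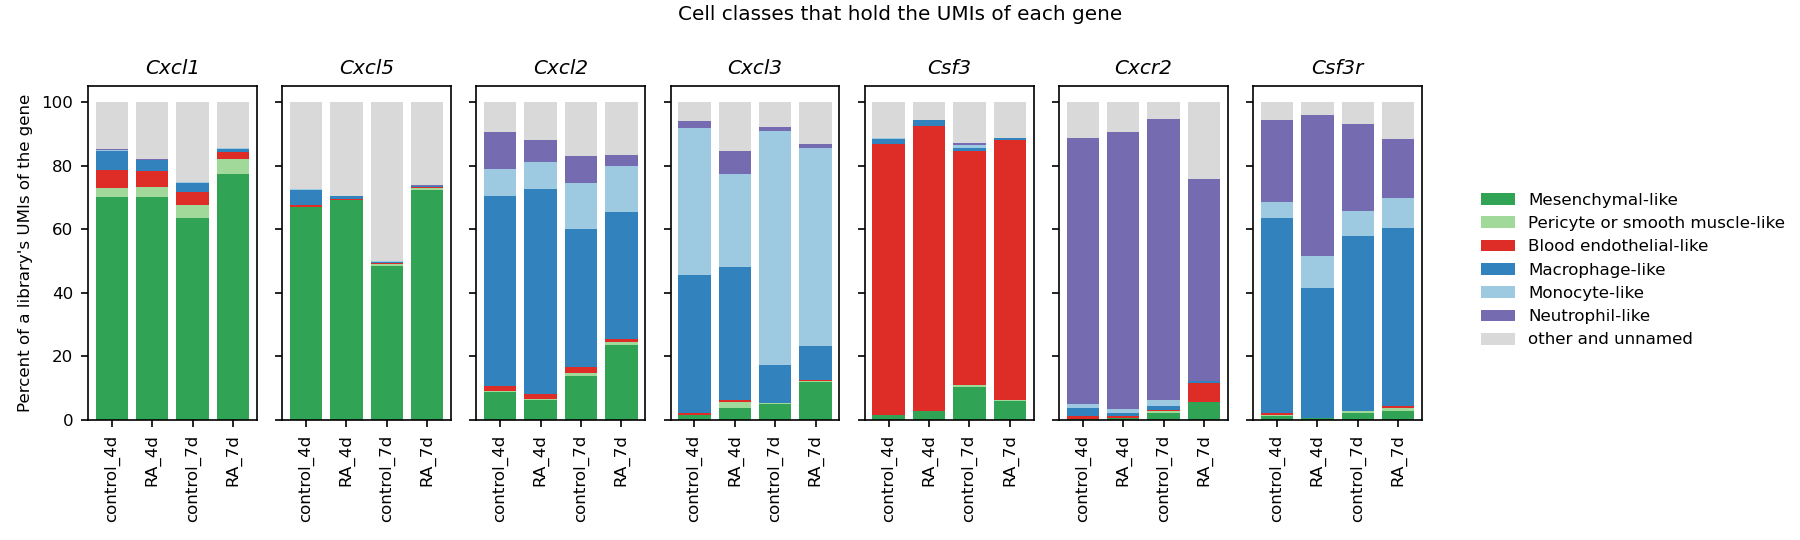
Percent of each gene's UMIs in the kept cells of a library (y axis) that lie in each cell class (colours), with libraries on the x axis. Grey stands for other and unnamed cells, which in control_7d include the 45.2% of *Cxcl5* UMIs in the *Timp1*-led cluster, and red for blood endothelial-like cells, which hold 73.5% to 89.6% of *Csf3* UMIs.

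Free RNA in droplets gives some UMIs to any cell, so shares of cells with a UMI were compared with cell types not known to make these genes, after each cell was thinned to 1000 UMIs. *Cxcl1* was then seen in 21.8% of mesenchymal-like cells (66.5% unthinned, median 24441 UMIs) and 20.9% of pericyte or smooth muscle-like cells, against 2.32% of T-like (8.64% unthinned, median 5773 UMIs) and 2.65% of B-like cells (median 3755 UMIs). *Cxcl5* was seen in 5.37% of mesenchymal-like cells (24.7% unthinned) and 0.387% of T-like cells. The 5.85% of blood endothelial-like cells with *Cxcl1* lay above the T-like share, whereas the 2.97% of macrophage-like cells lay close to it. *Cxcl2* was seen in 30.7% of monocyte-like, 26.2% of basophil-like, 24.2% of neutrophil-like and 23.96% of macrophage-like cells, against 1.14% of B-like cells. Mesenchymal-like cells, with 3.39%, are not such a comparison, since stromal cells can make this ligand. *Cxcl3* was seen in 10.7% of monocyte-like and 1.74% of macrophage-like cells. *Csf3* was seen in 1.24% of blood endothelial-like and 0.0506% of mesenchymal-like cells. *Cxcr2* was seen in 23.97% of neutrophil-like cells and 0.0142% of macrophage-like cells. *Csf3r* was seen in 29.7% of neutrophil-like, 5.03% of macrophage-like, 4.996% of monocyte-like and 0.0759% of mesenchymal-like cells. Thinned cells below 1000 UMIs, 28 mesenchymal-like and 42 neutrophil-like among them, were left out.

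The members were also counted against all genes of a class, taking a log2 ratio of at least 1 in size (pseudocount of 1 CPM, at least 50 UMIs over both libraries) as past the fold. This count is given for mesenchymal-, monocyte-, macrophage- and blood endothelial-like cells only and does not describe the other classes. Among those left out are neutrophil-like cells, whose levels of *Cxcl2*, *Cxcr2* and *Csf3r*, given above, were lower in RA_4d than in control_4d. In mesenchymal-like cells 1 of 4 members compared was past it at 4 dpf (*Cxcl5*, higher in RA), where 1.7% of all genes were, and 0 of 5 at 7 dpf, where 2.86% of all genes were. From 4 to 7 dpf in control, *Cxcl1* (-1.05) and *Cxcl2* (-1.15) were lower past the fold beside 4.7% of genes, and in RA *Cxcl5* (-1.76) beside 2.57%. In monocyte-like cells *Cxcl1* (-1.70) and *Cxcl3* (-2.35) were lower in RA at 4 dpf beside 2.43% of genes, and 0 of 4 members differed past the fold at 7 dpf beside 1.08%. From 4 to 7 dpf no monocyte-like member was past it in control (1.43% of genes), and *Cxcl1* (1.83), *Cxcl2* (1.39) and *Cxcl3* (2.48) were higher in RA beside 4.86%.

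In macrophage-like cells 0 of 5 members were past the fold between RA and control at 4 dpf (0.897% of genes) and at 7 dpf (1.23%). From 4 to 7 dpf *Cxcl3* (-1.31) and *Cxcl5* (-1.07) were lower there in control beside 1.39% of genes, and *Cxcl1* (1.01) was higher in RA beside 3.63%. In blood endothelial-like cells 0 of 3 members were past the fold at 4 dpf (0.889% of genes), and *Cxcl2* (-1.29; 38.0 CPM in control_7d and 14.9 in RA_7d) was lower in RA at 7 dpf beside 2.38%. From 4 to 7 dpf *Csf3* (-1.17) was lower in control beside 1.43% and *Cxcl2* (-1.08) in RA beside 2.22%. Some members counted here were low in their class over all libraries. *Cxcl1* stood at 29.6 CPM in macrophage-like and 19.7 in monocyte-like cells, against 15.2 in T-like and 16.3 in B-like cells. *Cxcl5* stood at 3.82 CPM in macrophage-like cells, against 1.97 and 3.11. *Cxcl2* stood at 28.8 CPM in blood endothelial-like cells, below 54.6 and 66.0. The part of free RNA in these calls was not tested.

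Other genes of neutrophil recruitment were read in monocyte-like cells, the class with the highest summed ligand level among those with at least 50 cells in each library. Between RA and control 2.43% of all genes were past the fold there at 4 dpf and 1.08% at 7 dpf, and the *Mmp12* part made up 43.6% of this class in control_4d and 29.5% in RA_4d. Of other CXC ligands, 3 of 5 compared were lower in RA past the fold at 4 dpf, namely *Pf4* (platelet factor 4, 1041 CPM in control and 387 in RA), *Cxcl10* (12.2 and 5.49) and *Cxcl14* (59.9 and 7.62). At 7 dpf *Pf4* (664 and 200.3 CPM) and *Ppbp* (20.4 and 1.05 CPM) were lower, with 0 higher. Of other receptors and scavengers, *Ackr3* (16.6 and 4.27 CPM at 4 dpf), which takes up CXC ligands, was lower among 2 compared, and among 5 other attractant genes compared *Ltb4r1*, a leukotriene receptor, was lower at 7 dpf (101 and 46.8 CPM). Of 8 inducing cytokines and receptors compared, *Il1rn*, the interleukin 1 antagonist, was lower at 4 dpf (188 and 91.5 CPM). *Il1b*, which induces these ligands in stroma, stood in monocyte-like cells at 317 CPM in control and 287 in RA at 4 dpf and at 241 and 217 at 7 dpf. None of the 6 genes of NF-κB feedback and transcript decay, the 4 and 3 myeloid growth factor genes, the 5 leukocyte capture genes and the 10 immediate early and heat shock genes compared at 4 and 7 dpf was past the fold.

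The genes whose pattern was most like each member's were sought over 50 profiles (a class in a library with at least 50 cells) and 8006 genes, by Pearson's r of log2(CPM + 10). The profiles share libraries, so r is a description. *Cxcl1* was most like *Tcea3* (0.93), *Cxcl5* like *Cyp1b1* (0.97), *Cxcl2* like *Clec4d* (0.89), *Cxcl3* like *F7* (0.88), *Csf3* like *Lhx6* (0.97) and *Sele* (0.96), *Cxcr2* like *Retnlg* (0.96) and *Csf3r* like *Cd33* (0.94). With a pseudocount of 1 CPM, 2 or 3 of the 5 leading genes of each member were kept, *Cyp1b1* and *Cd33* stayed first, and *F7*, *Sele* and *Retnlg* were no longer among the 5. Between members, r was 0.72 for *Cxcl1* and *Cxcl5*, 0.72 for *Cxcl2* and *Cxcl3*, 0.81 for *Cxcl2* and *Csf3r*, and -0.17 for *Cxcl1* and *Cxcl2*. The ligands therefore formed a stromal and a myeloid pair, while *Cxcl1* and *Cxcl2* are the closest of the 4 on the chromosome.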

How the data were processed

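The authors deposited a count table of UMIs for each of the 4 libraries, with genes and cell barcodes, from Chromium 3′ v3.1 chemistry, which per the labels was made with Cell Ranger 7.0.1 on mm10. Whole-number counts for 32285 genes and 34038 barcodes were read without scaling. Of these, 28828 cells had at least 500 UMIs and 300 features and were within the study's upper limits of 50000 UMIs, 7000 features and 8% mitochondrial UMIs.

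Depth was 85796286 to 158949181 UMIs in kept cells of a library. Clustering covered 31223 cells (the kept cells and those over the upper limits), with 1983 variable genes (2000 less the 17 that were members or list genes), 30 components, 15 neighbours and Leiden resolution 1 (scanpy 1.11.5, leidenalg 0.10.2, igraph 0.11.9, scikit-learn 1.9.0). Of 38 clusters, 29 were named from markers by mean log2 score (at least 1, with a lead of 0.35 and at least 3 detected markers). These thresholds were chosen after the clusters were seen, and the rebuilt names need not hold the same cells as those of the study. Scrublet called 774 kept cells (2.685%) doublets, which were left out in an alternative only.

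Counts were summed per class and library (Python 3.11.15, numpy 2.4.6, scipy 1.17.1, pandas 2.3.3, matplotlib 3.10.9). Levels have exact Poisson intervals, shares Clopper-Pearson intervals and ratios exact conditional intervals. With 1 library per group no p-value was computed. The ratio calculation was tested on simulated data for mesenchymal-like sums: of 200 genes changed by 1.5 on the log2 scale among 13510 at 4 dpf, 200 had the right direction and 191 were past the fold, and of 16806 at 7 dpf, 200 and 167. Positions come from GENCODE for GRCm38 and promoters from RefSeq for GRCm38.p6.

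The members and lists were chosen with earlier results of these data known. Named were the members, genes most like them (of 5 for each member, those given here), list genes past the fold in the class with the highest ligand level, and markers; *Selp*, *Sele* and *Il1b* were chosen after seeing their values. Alternatives were the study's limits, limits of 1000 UMIs and 500 features, doublets left out, resolutions of 0.5 and 2, cells named one by one, cells weighted equally, TMM factors, at least 10 UMIs for a gene, pseudocounts and thinning to 2000 UMIs.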

Additional observations from a re-analysis of the deposited data

Results flagged for a closer look

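RA to control went in opposite directions at 4 and 7 dpf in 4 results, and the difference between the time points was not tested in any of them. The share of neutrophil-like cells was 2.98 times control at 4 dpf and 0.358 times at 7 dpf. *Cxcl1* in mesenchymal-like cells stood at 0.876 and 1.66 times control. At 7 dpf the difference was much smaller in *Pi16*-led cells, and *Cxcl1* was no higher in RA in the *Saa3*-, *Aspn*- and *Tnmd*-led clusters. It was higher in *Abca8a*-led cells, and the mix of clusters differed. *Cxcl2* in monocyte-like cells stood at 0.577 and 1.32 times control. In the *Ly6c2* part of these cells it was lower in RA on both days, and the share of the *Mmp12* part differed between libraries. *Csf3* in blood endothelial-like cells stood at 0.791 and 1.94 times control. In the *Selp*-led cells, which held most of it, the 7 dpf difference was within counting error.

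Cells over the upper limits of 50000 UMIs or 7000 features were outside the comparisons, and some members stood higher there in RA than in the control library of the same day. In such cells of RA_4d, *Cxcl5* stood at 305 CPM (192 in control_4d), *Cxcr2* at 2.77 CPM (0.825) and *Csf3r* at 5.51 CPM (1.56), with 65 neutrophil-like cells among them in RA_4d and 7 in control_4d. In those of RA_7d, *Cxcl1* stood at 414 CPM (272 in control_7d), *Cxcl3* at 5.05 CPM (2.66), *Cxcl5* at 201 CPM (123) and *Csf3* at 1.5 CPM (0.461). Other members stood lower, as *Cxcl1* at 293 CPM in RA_4d and 350 in control_4d, *Cxcl2* at 94.9 and 132 CPM and *Cxcl3* at 3.00 and 6.40 CPM.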

How the results depend on the processing

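No paired analysis was possible because each group had 1 library. With the study's limits the neutrophil ratio at 4 dpf was 6.34. *Cxcl1* in mesenchymal-like cells, RA to control at 4 dpf, was 0.829 with cells named one by one, 0.823 at a resolution of 0.5, 0.830 without upper limits, 0.823 with the *Timp1*-led cluster added and 0.847 with TMM factors. At 7 dpf it was 1.56 with cells weighted equally, 1.56 with cells named one by one, 1.60 at a resolution of 0.5, 1.72 without upper limits, 1.60 with the *Timp1*-led cluster and 1.72 with TMM factors. *Cxcl5* at 4 dpf was 2.18 with cells named one by one, 2.16 at a resolution of 0.5 and 2.49 at a resolution of 2, and 2.16 with the *Timp1*-led cluster. At 7 dpf it was 1.15 with cells weighted equally, 1.17 at a resolution of 2 and 1.29 without upper limits, and it turned to 0.892 with cells named one by one, 0.957 at a resolution of 0.5 and 0.957 with the *Timp1*-led cluster. In monocyte-like cells, 7 to 4 dpf in RA turned to 0.772 at a resolution of 0.5 and 0.769 at a resolution of 2 for *Cxcl2*, and to 0.474 and 0.473 for *Cxcl3*. The *Cxcl5* ratio at 7 dpf was the same, 0.957, at a resolution of 0.5 and with the *Timp1*-led cluster added. The part of that cluster in the turns at the other settings was not tested. The monocyte-like turns came with the *Mmp12* part leaving the class. The settings without upper limits and with the *Timp1*-led cluster were chosen after seeing the data.

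Of 44 ratios, 37 to 44 kept their side of 1 under the settings on cells and clusters, and of 40, 37 kept it with cells weighted equally and 38 with TMM factors. The study's limits turned 4 of the 44 and moved 7 by over 1.5 times, and a resolution of 0.5 turned 7 and moved 7. With at least 10 UMIs for a gene, the counts of members past the fold stayed as given in all 16 comparisons, beside 0.736% to 8.68% of all genes in place of 0.889% to 4.86%. Depth limits *Csf3*, with 86 to 231 UMIs in a library's endothelium, and *Cxcr2*, with 145 UMIs in RA_7d.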

Other observations

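Cells over the upper limits of UMIs and features carried much of the *Cxcl1* and *Cxcl5* RNA. They were 10.96%, 5.18%, 11.1% and 3.65% of the barcodes in control_4d, control_7d, RA_4d and RA_7d and held 33.2%, 16.0%, 33.1% and 11.3% of all UMIs. Of deposited *Cxcl1* UMIs they held 52.0%, 22.9%, 52.9% and 14.6%, and of deposited *Cxcl5* UMIs 70.9%, 27.9%, 64.9% and 28.2%. Their shares of *Cxcl2* UMIs (19.7%, 12.4%, 18.8% and 10.3%) and of *Cxcl3* UMIs (13.2%, 3.49%, 14.9% and 5.73%) lay below their share of all UMIs in each library. The *Timp1*-led cluster made up 52.6%, 38.0%, 47.9% and 23.7% of the 836, 527, 656 and 376 such cells. Scrublet called 13.361% of cells over the limits doublets, against 2.685% of kept cells.

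*Cxcl2* was also high in 2 rare kinds of cells. Basophil-like cells held 1462 CPM in RA_4d and 1513 CPM in RA_7d. An unnamed cluster of 39 cells led by *Gata3*, *Areg* and *Il5*, genes of type 2 lymphoid cells, held 914, 1623, 1039 and 1353 CPM of *Cxcl2* in control_4d, control_7d, RA_4d and RA_7d, from 6, 5, 9 and 19 cells. These cells were described after their values were seen.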
